A study of Homo sapiens with 30 samples.

Results

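Nascent transcription in A549 cells, a line established from a human lung adenocarcinoma, was compared after 2 days in 1 uM GSK591, which blocks PRMT5, and after 2 days in 1 uM MS023, which blocks the type I arginine methyltransferases. The comparison holds 4 of the 30 libraries of the series, 2 labelled with each inhibitor, and was made over all 22919 genes of the 58780 in the count table that passed the filter on low counts. Both inhibitors were given in 0.01% DMSO and neither group received dexamethasone. Levels in the 2 untreated libraries, labelled as 15 min in 0.01% DMSO, stand beside the values for reference, and the same contrast at 4 and 7 days, with 2 further libraries of each inhibitor at each time, was used to see which differences came back. The series measured nascent RNA by PRO-seq, in which polymerases already on the DNA extend their transcripts with labelled nucleotides. It also holds libraries treated with the glucocorticoid dexamethasone. Here these entered the shared filter on low counts, the scaling and the estimate of the spread between replicates, but no contrast. With the 4 libraries alone 18352 genes were tested. Nothing in the labels says that the libraries of a group came from separate cultures, so p-values may measure a spread that is partly technical.

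Arginine side chains are methylated by 2 main classes of enzyme. Type I enzymes such as PRMT1, CARM1 and PRMT6 place asymmetric dimethyl marks, and PRMT5, working with its partner WDR77, places symmetric dimethyl marks on histones, Sm proteins of the spliceosome and other RNA-binding proteins. Both classes share substrates and the methyl donor S-adenosylmethionine.

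The promoters shown here belong to genes that carry 3 of the findings: interferon-stimulated genes that were higher with MS023, a replication histone gene that was higher with MS023, and 2 mitotic genes that differed in opposite directions. The interferon promoters were picked for holding the letters marked, as 4 of the 6 matched promoters of called interferon-stimulated genes did. The histone promoter was picked for holding both stretches marked in it. In these promoters the marked letters therefore follow from the choice. Each promoter is the 250 bases before the RefSeq start (GRCh38.p14), read 5′ to 3′ on the gene's strand. Capitals in the first 4 mark the core of the interferon-stimulated response element, which is TTTC, any 2 bases and TTTC, on either strand.
IFIT1, chr10:89392373-89392622, plus strand: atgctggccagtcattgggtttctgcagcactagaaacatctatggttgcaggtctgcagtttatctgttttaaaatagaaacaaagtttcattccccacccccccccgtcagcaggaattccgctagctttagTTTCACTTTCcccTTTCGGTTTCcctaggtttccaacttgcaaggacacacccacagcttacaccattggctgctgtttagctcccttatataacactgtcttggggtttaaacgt
IFIT3, chr10:89327747-89327996, plus strand: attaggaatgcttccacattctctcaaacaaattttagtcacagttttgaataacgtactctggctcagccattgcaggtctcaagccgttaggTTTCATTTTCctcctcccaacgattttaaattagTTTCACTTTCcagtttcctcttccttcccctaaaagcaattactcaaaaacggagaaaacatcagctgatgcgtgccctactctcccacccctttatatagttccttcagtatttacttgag
LGALS3BP, chr17:78979924-78980173, minus strand: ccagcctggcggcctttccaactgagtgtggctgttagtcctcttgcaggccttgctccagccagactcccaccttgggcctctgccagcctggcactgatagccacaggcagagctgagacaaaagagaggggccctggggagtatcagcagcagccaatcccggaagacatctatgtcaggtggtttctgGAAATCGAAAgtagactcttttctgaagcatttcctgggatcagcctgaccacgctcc
OAS3, chr12:112938224-112938473, plus strand: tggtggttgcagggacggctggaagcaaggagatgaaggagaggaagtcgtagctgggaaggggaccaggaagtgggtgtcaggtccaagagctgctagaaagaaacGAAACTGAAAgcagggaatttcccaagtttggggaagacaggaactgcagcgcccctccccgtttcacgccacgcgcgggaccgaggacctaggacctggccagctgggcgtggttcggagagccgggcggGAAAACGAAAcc
Capitals in the histone promoter mark TATAAA and CCAAT on either strand, where 2 TATAAA matches overlap.
H3C7, chr6:26250636-26250885, minus strand: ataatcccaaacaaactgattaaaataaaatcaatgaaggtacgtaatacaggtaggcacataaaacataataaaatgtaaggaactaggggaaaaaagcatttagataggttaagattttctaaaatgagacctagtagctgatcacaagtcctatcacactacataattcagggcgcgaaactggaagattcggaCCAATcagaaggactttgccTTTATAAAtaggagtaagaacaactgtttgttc
Capitals in the mitotic promoters mark CCAAT and the cell cycle homology element TTTGAA, on either strand. CCNB2 holds 4 CCAAT matches and 1 TTTGAA match, and AURKB holds 1 CCAAT match.
CCNB2, chr15:59104896-59105145, plus strand: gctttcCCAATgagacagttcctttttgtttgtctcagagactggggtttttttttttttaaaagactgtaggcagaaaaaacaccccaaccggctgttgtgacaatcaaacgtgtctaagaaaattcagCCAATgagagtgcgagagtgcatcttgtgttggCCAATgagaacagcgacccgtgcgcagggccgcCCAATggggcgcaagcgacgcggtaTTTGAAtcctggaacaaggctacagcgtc
AURKB, chr17:8210226-8210475, minus strand: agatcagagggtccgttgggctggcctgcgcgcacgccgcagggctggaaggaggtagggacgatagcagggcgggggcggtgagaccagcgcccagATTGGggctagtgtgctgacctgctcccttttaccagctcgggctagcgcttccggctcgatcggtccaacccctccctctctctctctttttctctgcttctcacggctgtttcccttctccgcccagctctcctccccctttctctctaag
The interferon core was found in 839 of 27305 RefSeq promoters of this length (3.07%) and in 19 of the 32 promoters that could be matched to the interferon-stimulated genes tested (59.4%). Among replication histone genes, 51 of 56 were matched, and CCAAT was found in 42 of them and TATAAA in 36, against 33.0% and 11.1% of all promoters. Promoters of OASL and IFIT2 were not matched. A match of letters is a description of these windows only.

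Total counts were 8892975 and 8876853 with GSK591 and 8441211 and 9360229 with MS023, and the 2 libraries of each inhibitor correlated with r = 0.975 and 0.981 across 11117 genes, which are not independent replicates. Mitochondrial genes took 71.4% and 68.5% of counts with GSK591 against 62.2% and 65.0% with MS023, so the groups did not overlap in this share, and levels are given as CPM, the gene's count relative to a library size scaled by TMM, which does not rest on the total alone. The counts of called genes in the sets below stand beside 1.11% of all genes called higher with GSK591 and 1.58% called lower. These sets were chosen with earlier results of these data known, so their shares are descriptions and not tests. Of 35 mitochondrial genes tested, 2 were called higher with GSK591, and the median log2 difference of the 35 was 0.41. With mitochondrial and ribosomal RNA genes left out 622 genes were called in place of 617 and 604 were shared, and any other part of the mitochondrial share in the differences was not tested. All 12 A549 marker genes, which include keratins and aldo-keto reductases, were detected and tested. Of these, 3 were called lower with GSK591 and at most 1 in a fit without 1 library, and their summed level was 1211 and 1181 CPM with GSK591 and 1462 and 1547 with MS023. Of 16 markers of fibroblasts, endothelium, leukocytes and neurons, 8 passed the filter, none was called by edgeR or by DESeq2, 2 had an unadjusted p under 0.05, and their summed level was 29.2 and 31.9 against 21.7 and 25.8. The groups did not overlap in either sum, and the part of this in the gene differences was not tested. DCN was at 0 counts in all 4 libraries. CDKN2A and CDKN2B, which lie in the 9p21 region lost in A549, had 0 counts in all 4 libraries, while the neighbouring MTAP had 68 to 129 counts.

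None of the genes of the targeted enzymes passed the threshold. PRMT5 itself was at 6.05 and 5.40 CPM with GSK591 and 8.02 and 6.28 with MS023, a log2 difference of -0.32 ± 0.21 (SE) with a 95% interval of -0.75 to 0.10 (edgeR adjusted p = 0.552). PRMT1, the main type I enzyme, was at 36.0 and 35.4 against 44.1 and 45.6 CPM, a log2 difference of -0.33 ± 0.11 (SE) with an interval of -0.55 to -0.10 (adjusted p = 0.112). The intervals are for single genes, with no adjustment over genes, and those of PRMT1 and PRMT3 leave out 0. CARM1, PRMT3, WDR77 and the Sm protein gene SNRPB had adjusted p from 0.287 to 0.995 with intervals of -0.46 to 0.48, 0.03 to 0.62, -1.17 to 0.40 and -0.42 to 0.20. PRMT6 and PRMT8 were below the filter, with at most 1 count in a library. The 1 called gene among 14 tested of this family and its partners was MAT2A, which makes S-adenosylmethionine: it was at 117 and 121 CPM with GSK591 and 155 and 154 with MS023, -0.37 ± 0.10 (SE) on the log2 scale (adjusted p = 0.0263), and was not called when any 1 of the 4 libraries was left out.

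Across all genes, 617 differed between the inhibitors (2.69% of those tested), of which 255 were higher with GSK591 (1.11%) and 362 lower (1.58%). The test was edgeR's quasi-likelihood test on counts, with Benjamini-Hochberg adjustment over all genes and a threshold of 0.05. Of these, 117 higher and 73 lower genes differed by at least 1 on the log2 scale. Leaving out 1 of the 4 libraries left 223 to 271 called genes, and DESeq2 called 304. Fitting only the 4 libraries called 1106 of 18352 genes, 468 higher and 638 lower. A covariate for the share of counts in processed pseudogenes gave 925 calls. With total counts as the only scaling the split became 48 higher and 1060 lower, and the median log2 difference of all genes was -0.39 in place of -0.01. Against untreated cells, 1292 genes (5.64%) were called with GSK591 and 2381 (10.4%) with MS023. Directions below are relative to the median gene under TMM.

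**Figure D1:**
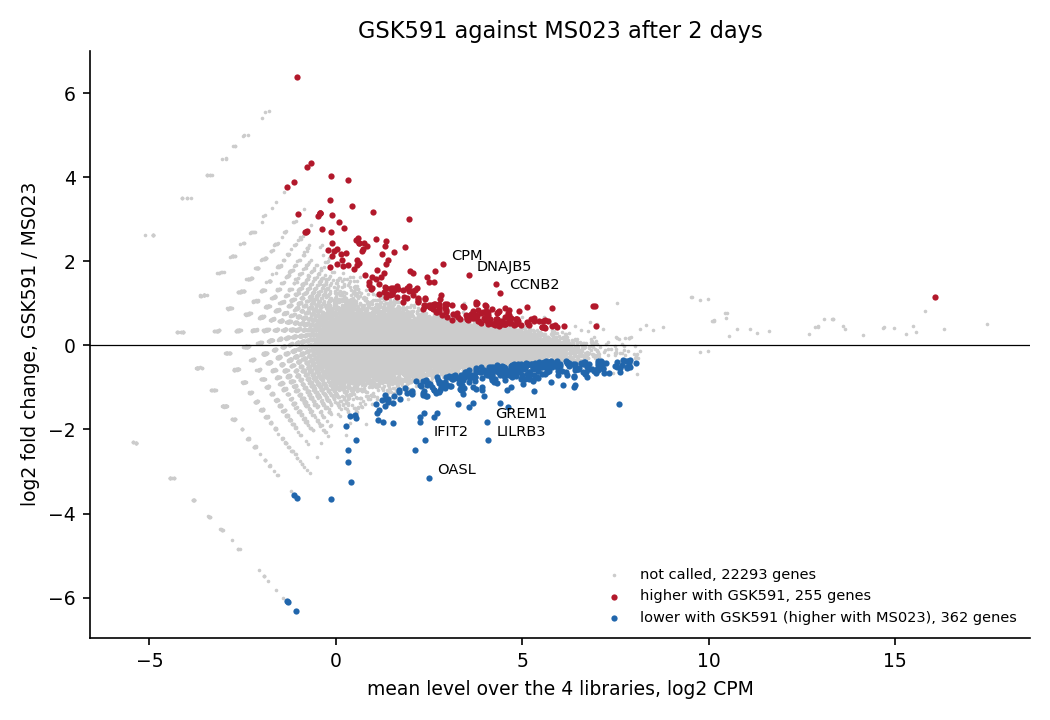
Log2 fold change of GSK591 over MS023 after 2 days (y axis) against the mean level over the 4 libraries in log2 CPM (x axis), 1 point per gene, for the 22910 genes with a count in them. The 255 genes higher with GSK591 are red and the 362 lower are blue; OASL, IFIT2, LILRB3 and GREM1 are among the lower genes, and CPM, DNAJB5 and CCNB2 among the higher.

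A share of the interferon-stimulated genes, 8 of 40 tested, was higher with MS023 than with GSK591. OASL, an RNA-sensing antiviral gene, was at 1.21 and 1.03 CPM with GSK591, 10.8 and 9.41 with MS023 and 1.22 and 0.806 in untreated cells. Its log2 difference was -3.16 ± 0.35 (SE) (edgeR adjusted p = 1.82e-08), and the GSK591 libraries lay within the range of the untreated ones while both MS023 libraries lay above it. IFIT2, whose product binds viral RNA, was at 2.29 and 1.38 with GSK591 and 6.94 and 10.4 with MS023 (-2.26 ± 0.30 (SE), adjusted p = 1.94e-06); its exons overlap LIPA. IFIT1, whose promoter is shown above with 2 cores, was at 2.15 and 2.07 against 6.26 and 8.68 CPM (-1.82 ± 0.29 (SE), adjusted p = 5.10e-05). In all 3 genes the lower MS023 library was above the higher GSK591 library, and the values in untreated cells were 1.67 and 1.81 for IFIT2 and 1.33 and 1.41 for IFIT1.

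HERC6, PARP9 and IFIT3 differed by -1.36, -1.10 and -1.09 on the log2 scale. They are less certain: none of the 3 was called by DESeq2, with adjusted p of 0.149, 0.193 and 0.197, and PARP9 and IFIT3 were lost without any 1 of the 4 libraries, HERC6 without each but MS023 replicate 2. PARP9 overlaps DTX3L. LGALS3BP, a secreted glycoprotein gene whose promoter holds 1 core, was at 19.2 and 17.9 CPM with GSK591 and 29.7 and 30.1 with MS023, -0.69 ± 0.13 (SE) (adjusted p = 0.000445). OAS3, an oligoadenylate synthase gene named after its values were seen, differed by -0.54 (adjusted p = 0.0498). Of 44 listed interferon-stimulated genes 40 were tested and 8 were called, all lower with GSK591, against 2.69% of all genes. Their median difference was -0.49, and 36 of 40 were below 0; all genes tested had a median of -0.01. The most abundant member, ISG20, was at 27.4 and 29.2 against 32.5 and 27.8 CPM with an interval of -0.39 to 0.22. Against untreated cells, a reference that both comparisons share, 1 of the 40 was called higher with GSK591 and 12 with MS023, where 3.19% and 6.18% of all genes were called higher. The medians were -0.04 and 0.45. DESeq2 called 4 of the 8, and the 4 fits with 1 library left out called 4 or 5.

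**Figure D2:**
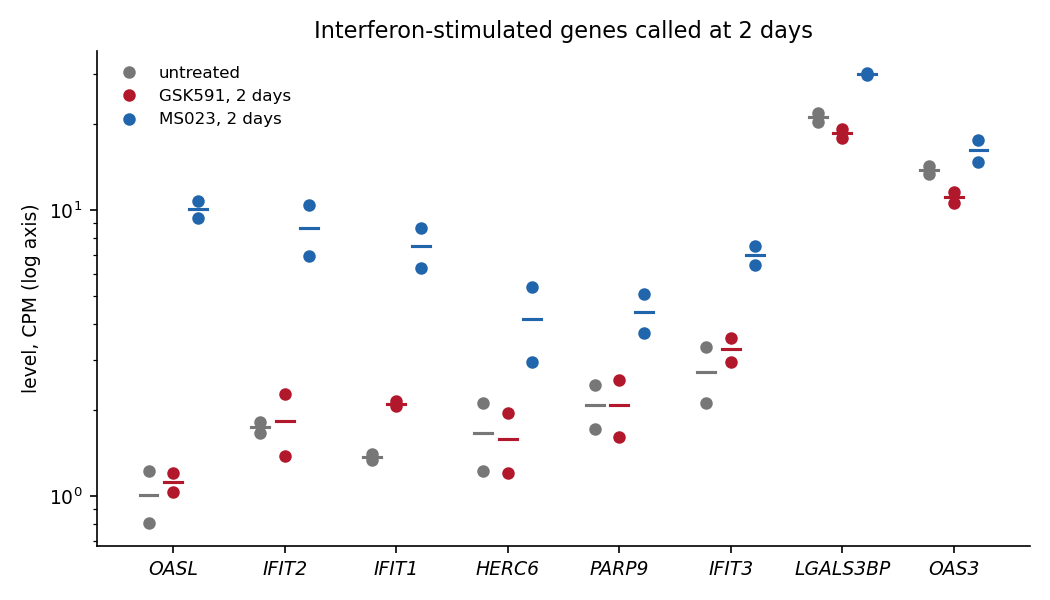
Level in CPM on a log axis (y axis) of the 8 interferon-stimulated genes called at 2 days (x axis), 1 point per library and a bar at each group's mean of 2. The MS023 libraries of every gene lie above its GSK591 libraries, which stand near the untreated values for OASL, IFIT2, HERC6 and PARP9.

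IRF7 and SOCS3, regulators of the same pathway, were also lower with GSK591 than with MS023. Untreated cells had 19.5 and 17.3 CPM of IRF7, between the values of the 2 inhibitors. They had 39.8 and 45.5 CPM of SOCS3, a range that held both GSK591 values. In the authors' deposited table IRF7 stood at -0.06 with GSK591 and 1.74 with MS023 on the log2 scale against untreated cells, where this fit gave -0.38 and 0.15. IRF7, the transcription factor that amplifies the interferon response, was at 14.7 and 13.7 CPM with GSK591 and 20.5 and 20.2 with MS023 (-0.53 ± 0.14 (SE), edgeR adjusted p = 0.029), and SOCS3, an inhibitor of cytokine signalling, at 43.3 and 43.7 against 63.4 and 60.1 (-0.51 ± 0.12 (SE), adjusted p = 0.00846). Among 26 tested genes of nucleic acid sensing and interferon signalling, those 2 were called (7.69%, beside 2.69% of all genes); neither was called when any 1 of the 4 libraries was left out, and DESeq2 did not call IRF7 (adjusted p = 0.139). The adaptor gene MAVS missed the threshold (adjusted p = 0.0531). Of 17 genes of MHC class I presentation, B2M alone was called (5.88%): it was at 5.78 and 8.50 CPM with GSK591 and 12.2 and 14.0 with MS023 (-0.86 ± 0.19 (SE), adjusted p = 0.00324), and was not called without GSK591 replicate 1 (adjusted p = 0.225) or MS023 replicate 2 (adjusted p = 0.0952). The 27 NF-kB and cytokine genes gave 0 calls by edgeR, 5 at an unadjusted p under 0.05 and 0 by DESeq2.

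Replication-dependent histone genes, which lie in clusters on chromosomes 6 and 1 and are transcribed in S phase, were higher with MS023 in 36 of 56 cases. The linker histone gene H1-5 was at 23.1 and 27.5 CPM with GSK591, 50.4 and 58.1 with MS023 and 37.9 and 44.9 in untreated cells, a log2 difference of -1.10 ± 0.18 (SE) (edgeR adjusted p = 0.000626). H3C7, whose promoter is shown above, was at 7.93 and 5.63 against 13.3 and 15.0 CPM (-1.07 ± 0.21 (SE), adjusted p = 0.000895). H4C9 was at 15.9 and 15.6 against 32.4 and 33.3 (-1.06 ± 0.16 (SE), adjusted p = 1.24e-05). In these 3 genes both GSK591 libraries were below both MS023 libraries, with the untreated values between them. Of 71 listed histone genes 56 were tested and 36 were called, all lower with GSK591 (64.3% of those tested, against 1.58% of all genes called lower), with a median of -0.58. In 54 of the 56 both GSK591 libraries were below both MS023 libraries, a pattern seen in 24% of all genes. The summed level was 2446 and 2716 CPM with GSK591, 3607 and 4046 with MS023 and 2850 and 3247 in untreated cells. Calls rest partly on single libraries: without GSK591 replicate 1 or without MS023 replicate 2 only 9 members were called. DESeq2 called 27. Several members are near-identical copies (H3C14 and H3C15, for example), so their counts are not independent.

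Among 47 mitotic genes CCNB2 and AURKB were called (4.26%, beside 2.69% of all genes), in opposite directions. CCNB2, the B-type cyclin that drives mitotic entry, was at 31.1 and 28.7 CPM with GSK591, 13.7 and 11.6 with MS023 and 26.9 and 28.0 in untreated cells, 1.24 ± 0.15 (SE) (edgeR adjusted p = 1.89e-07). Both MS023 libraries were below all other libraries shown, whereas in the authors' deposited table the difference between their 2 log2 fold changes had the other sign, -0.37. How that table's reads were counted is not given in the sources used here, and its values are not on the scale of this fit: in the authors' deposited table the differences were 0.31 for CPM (the gene), 0.12 for DNAJB5 and 0.01 for LILRB3, described further on, against 1.94, 1.68 and -2.25 here, and -2.99 for OASL against -3.16. AURKB, the kinase of the chromosomal passenger complex, was at 18.1 and 18.3 against 29.0 and 29.3 CPM (-0.68 ± 0.13 (SE), adjusted p = 0.000976), and untreated cells had 34.0 and 37.8. MKI67, the proliferation marker, was at 53.9 and 41.8 against 55.2 and 70.8 CPM with an interval of -1.22 to 0.41. Of 50 DNA replication genes, MCM5 (-0.58) and POLD1 (-0.51) were called lower (4%). DESeq2 called 0 of the list, POLD1 was not called in any fit without 1 library, and MCM5 only without GSK591 replicate 2. Of 26 genes of cell cycle control 3 were called (11.5%), and DESeq2 called 1: CDKN1A, described with the p53 targets, and MNT, a MAX-binding repressor, were higher, and CCND1, the cyclin D1 gene, was lower. MNT was at 45.6 and 38.7 CPM with GSK591 and 31.1 and 29.1 with MS023 (0.48, edgeR adjusted p = 0.0207), and CCND1, which overlaps LTO1, at 49.5 and 56.3 against 72.9 and 64.9 (-0.38, adjusted p = 0.0481). Repair genes of the Fanconi and recombination pathways (33) and centrosomal genes (36) had 0 calls by edgeR and by DESeq2, with 3 each at an unadjusted p under 0.05.

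Targets of p53, the tumour suppressor that A549 cells retain, were higher with GSK591 in 11 of 32 cases. MDM2, the p53-degrading ligase and itself a target, was at 72.3 and 71.4 CPM with GSK591, 38.6 and 39.3 with MS023 and 43.5 and 42.3 in untreated cells, 0.88 ± 0.11 (SE) (edgeR adjusted p = 6.74e-07). FDXR, a mitochondrial reductase gene, was at 28.1 and 24.0 against 14.1 and 15.7 CPM (0.80 ± 0.14 (SE), adjusted p = 0.000176), and BTG2, an antiproliferative gene, at 29.8 and 34.4 against 18.7 and 17.4 (0.84 ± 0.16 (SE), adjusted p = 0.00136). CDKN1A, the p21 cell cycle inhibitor gene, was at 20.2 and 21.0 against 13.2 and 11.6 (0.73 ± 0.15 (SE), adjusted p = 0.00216). In these 4 genes the GSK591 libraries were above the MS023 libraries and above untreated cells. SPATA18, FAS and EDA2R had larger differences at lower levels, 1.71, 1.34 and 1.29; FAS overlaps ACTA2, and EDA2R was not called by DESeq2 or without any 1 library. All 32 listed targets were tested, 11 were called (34.4%) and all of these were higher, beside 1.11% of all genes, with a list median of 0.41 and 29 above 0. DESeq2 called 8, and the fits with 1 library left out called 4 without GSK591 replicate 2 or MS023 replicate 2 and 8 without either of the others. With total counts as the only scaling 1 was called and the median was 0.02, beside the general shift given above. PLK2 and GDF15, the 2 most abundant members, did not pass. PLK2 was at 206 and 208 CPM with GSK591 and 197 and 206 with MS023, with an interval of -0.21 to 0.28, and the interval of GDF15 was -0.31 to 0.15. Both GSK591 libraries were above both MS023 libraries in 23 of 32, a pattern seen in 21.2% of all genes. Against the shared untreated reference 11 were called higher and 0 lower with GSK591, where 3.19% of all genes were called higher and 2.45% lower. With MS023 2 were called higher and 3 lower, where the shares of all genes were 6.18% and 4.21%, so the share called higher was near the background. The medians were 0.48 and -0.05.

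**Figure D3:**
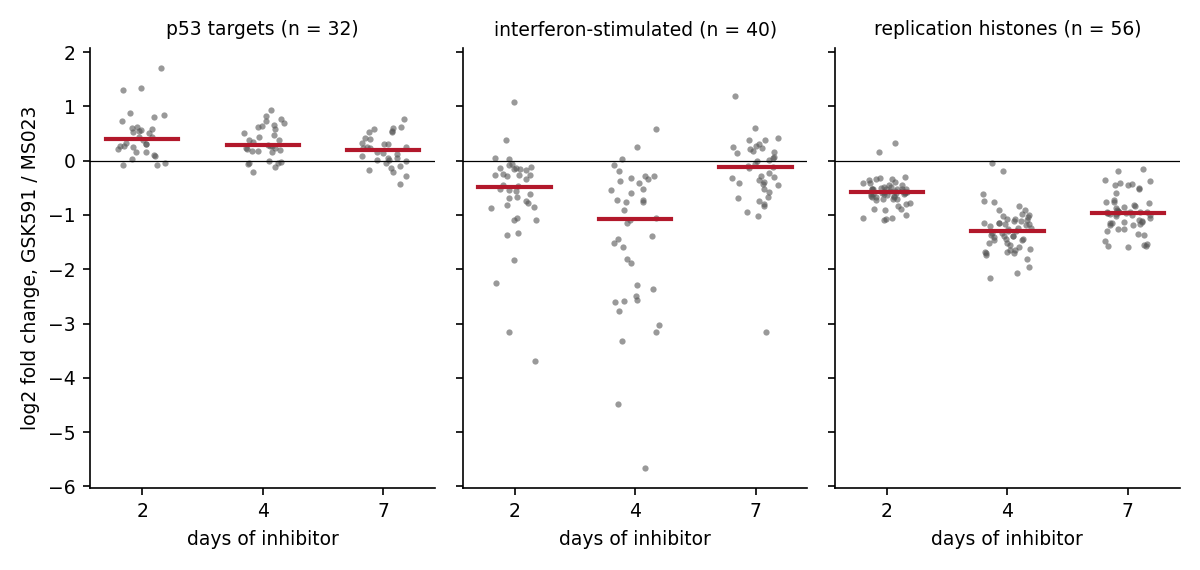
Log2 fold change of GSK591 over MS023 (y axis) after 2, 4 and 7 days (x axis), 1 point per tested gene and a red bar at the median, for p53 targets (32), interferon-stimulated genes (40) and replication histones (56). The medians go from 0.41 to 0.28 and 0.19, from -0.49 to -1.08 and -0.12, and from -0.58 to -1.29 and -0.96.

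Beyond these lists, the largest rises with GSK591 were led by CPM, the carboxypeptidase M gene on chromosome 12 (chr12:68842197-68971570, minus strand, hg38). Its level, on the same scale as above, was 9.54 and 13.6 with GSK591 and 2.44 and 3.6 with MS023, with 6.34 and 5.14 in untreated cells, 1.94 ± 0.22 (SE) (edgeR adjusted p = 5.96e-08). Its exons overlap those of MDM2 on the other strand, and the use of strand in counting is not given in the sources used here, so reads of the 2 genes may not be told apart. DNAJB5, a heat shock cochaperone gene with no exon overlap, was at 18.0 and 17.9 with GSK591, 5.77 and 5.45 with MS023 and 9.68 and 10.4 in untreated cells, 1.68 ± 0.17 (SE) (adjusted p = 1.71e-09). Its MS023 libraries lay below and its GSK591 libraries above both untreated ones. KIAA1614 was at 8.87 and 10.5 against 2.93 and 2.77 CPM (1.76 ± 0.25 (SE), adjusted p = 4.03e-06), with 8.01 and 7.96 in untreated cells, and overlaps KIAA1614-AS1. ADCY4, an adenylate cyclase gene overlapping AL096870.1, CNTN2, a neural adhesion gene, and ZDHHC11, a palmitoyltransferase gene overlapping BRD9, differed by 1.63, 1.51 and 1.5.

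The remaining genes of the largest rises were PRCD (1.20), ARFGAP3 (1.12), GCHFR (1.09), AC087752.3 (1.09) and TTN (1.03), the titin gene. PRCD, ARFGAP3, GCHFR and TTN overlap exons of other genes, and these 4 were not called with total counts as the only scaling. EGFR, the receptor that drives growth in many lung tumours, was at 32.5 and 24.8 CPM with GSK591, 19.0 and 16.8 with MS023 and 36.6 and 35.0 in untreated cells, 0.68 ± 0.14 (SE) (edgeR adjusted p = 0.00191). It was not called without GSK591 replicate 1 (adjusted p = 0.214) or without MS023 replicate 2 (adjusted p = 0.0931).

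SMAD6, GREM1, INHBB and HELZ2 were among the largest falls. SMAD6, the inhibitory SMAD that restrains BMP signalling, was at 107 and 107 CPM with GSK591, 280.3 and 279.7 with MS023 and 125 and 140.3 in untreated cells, -1.39 ± 0.11 (SE) (edgeR adjusted p = 2.80e-12). Its 2 libraries of each inhibitor were almost identical, and both MS023 libraries were above all others shown. GREM1, a secreted BMP antagonist, was at 7.93 and 6.67 against 28.0 and 23.9 CPM (-1.83 ± 0.19 (SE), adjusted p = 4.54e-09), and its antisense neighbour GREM1-AS1 at 13.0 and 10.9 against 29.0 and 32.3 (-1.36); their exons overlap, so the 2 may share reads. INHBB, which encodes an activin and inhibin subunit, was at 6.59 and 6.09 against 18.1 and 16.9 CPM (-1.47 ± 0.17 (SE), adjusted p = 4.42e-08), with 7.67 and 7.15 in untreated cells. HELZ2, a helicase and interferon-inducible coactivator gene, was at 12.9 and 13.2 against 35.3 and 37.2 (-1.47 ± 0.14 (SE), adjusted p = 1.15e-10). In the authors' deposited table the log2 fold change of MS023 against untreated cells was 0.05 for SMAD6, where this fit gave 1.08. The difference between the inhibitors there was -0.44 for SMAD6, against -1.39 here. For GREM1, INHBB and HELZ2 that table gave 1.38, 1.16 and 1.09 with MS023, against 1.16, 1.24 and 1.18 here. In GREM1, INHBB, HELZ2 and SMAD6 both MS023 libraries were above all untreated and GSK591 libraries. These 4 were called in all fits tried, including each with 1 library left out. Of 39 tested genes of extracellular matrix and TGF-beta response, the list that holds GREM1, 1 was called lower and 1 higher (5.13%, beside 2.69% of all genes), and the list median was 0.02.

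LILRB3, a leukocyte receptor gene with a near-identical neighbour LILRA6, was at 6.32 and 5.52 CPM with GSK591 and 29.7 and 26.5 with MS023, with 13.2 and 14.1 in untreated cells, -2.25 ± 0.19 (SE) (edgeR adjusted p = 2.80e-12). Its reads may be split with the neighbour, so its level is uncertain, though both GSK591 libraries were below and both MS023 libraries above the untreated ones. The long noncoding genes AC007785.1 and LINC01447, and LINC00672, which the annotation lists as coding, differed by -1.61, -1.60 and -1.71. AC009690.1 differed by -1.38 and overlaps CELF6 and HEXA. Among called pseudogenes the largest differences by the same rule were TSPY26P (0.69), PMS2P3 (0.63) and SEC22B4P (0.62) upward and IGFL1P1 (-1.37), BOD1P1 (-1.19) and GCATP1 (-1.04) downward, and reads of such copies can come from their parent genes.

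The called immediate early, integrated stress response and snoRNA host genes were lower with GSK591 than with MS023. Shares in these lists stand beside 1.58% of all genes called lower and 1.11% called higher. Of 29 immediate early genes 6 were called (20.7%), all lower: KLF2, a zinc finger factor, was at 16.9 and 17.9 CPM with GSK591, 36.5 and 33.2 with MS023 and 35.5 and 35.4 in untreated cells, -1.0 ± 0.16 (SE) (edgeR adjusted p = 5.65e-05), so the MS023 value was the one at the untreated level. JUND, ZFP36 and IER2 differed by -0.63, -0.58 and -0.58. The 37 integrated stress response genes included 6 called members (16.2%), all lower: STC2, a secreted hormone gene, was at 14.1 and 12.8 against 24.1 and 25.3 CPM (-0.88 ± 0.15 (SE), adjusted p = 8.45e-05). CHAC1, NUPR1 and CEBPB differed by -0.59, -0.64 and -0.53, and CBS by -1.21. Against the shared untreated reference, 5 stress response genes were called higher and 1 lower with GSK591, and 9 higher and 2 lower with MS023. Of the immediate early genes 1 was called higher and 4 lower with GSK591, and 13 higher and 3 lower with MS023. Of all genes, 3.19% were called higher and 2.45% lower with GSK591, and 6.18% and 4.21% with MS023. Of 20 snoRNA host genes 6 were called (30%), again all lower, led by SNHG3 at 126 and 123 against 190.1 and 202 CPM (-0.66 ± 0.11 (SE), adjusted p = 7.83e-05) and GAS5 (-0.50). SNHG3 overlaps RCC1. Of 85 ribosomal protein genes 7 were lower and 1, RPS27L, which is also a p53-responsive gene, was higher (0.49), 9.41% in all. Fits without 1 library called 3 or 4 of the immediate early list, 2 or 3 of the stress list and 2 to 4 of the snoRNA hosts, and 1 or 2 of the ribosomal protein genes. Among genes named so far, exons of CDKN1A overlap DINOL, of MAT2A GGCX, of EGFR EGFR-AS1, of CEBPB CEBPB-AS1, of GAS5 GAS5-AS1 and of PMS2P3 SPDYE5.

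**Figure D4:**
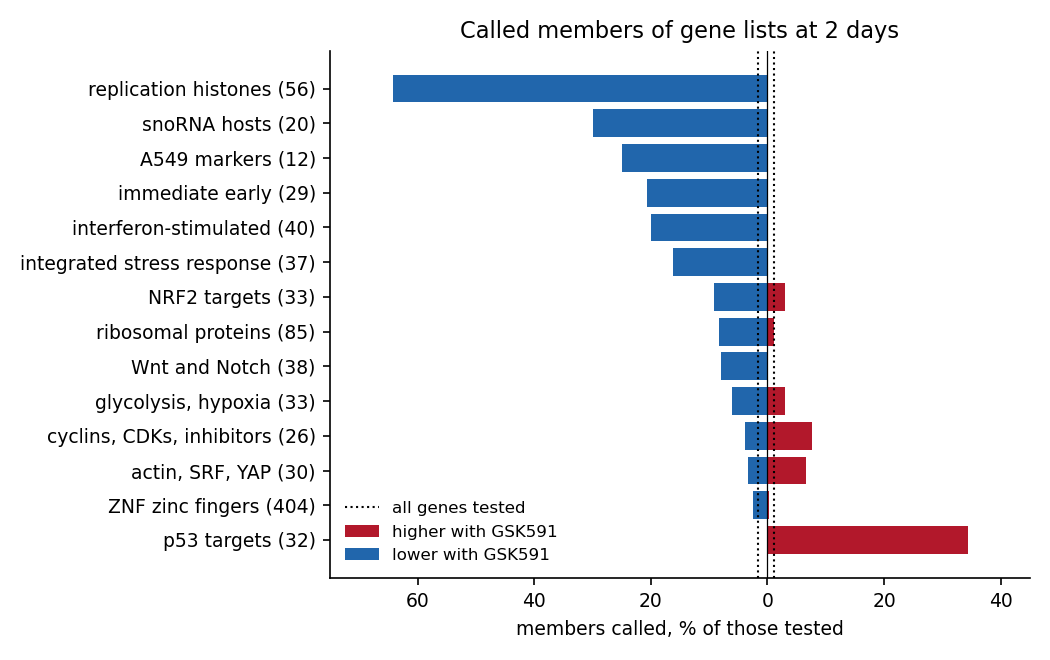
Members called at 2 days as a percentage of those tested (x axis; red to the right, higher with GSK591; blue to the left, lower), for gene lists with at least 3 calls (number tested in brackets), with dotted lines at the shares of all genes, 1.11% and 1.58%. Replication histones reach 64.3% lower, interferon-stimulated genes 20% lower and p53 targets 34.4% higher.

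Lists of RNA processing had shares of called genes near or below the 2.69% of all genes, with 2% in the first list. Of 50 genes of Sm proteins, spliceosomal snRNPs and the SMN complex, the substrates long linked to PRMT5, SF3A2 was called higher with GSK591, at 15.2 and 15.5 against 9.97 and 8.4 CPM (0.74 ± 0.17 (SE), edgeR adjusted p = 0.00778), near the untreated level of 16.6 and 15.8; it overlaps PLEKHJ1 and was not called without either GSK591 library or without MS023 replicate 2. SR factors (23 genes) and polymerase pausing and elongation factors (37) had 0 calls by edgeR and by DESeq2. At an unadjusted p under 0.05 in edgeR they had 1 and 6, beside 3120 of all 22919 genes. PRPF8 and SNRNP70, the most abundant of the snRNP list, had intervals of -0.20 to 0.34 and -0.14 to 0.33. Of 37 hnRNP and arginine-rich RNA-binding protein genes only HNRNPA0 was called (-0.46), a share of 2.70%. HNRNPA2B1, which overlaps CBX3, was at 218 and 172 CPM with GSK591 and 162 and 186 with MS023, and NCL, the nucleolin gene, at 177 and 128 against 160.2 and 163. The libraries of the inhibitors overlapped in both genes.

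Coding genes called lower with GSK591 had a shorter median span and a higher share of single-exon genes than all coding genes tested, and most had several exons. Of the 301 coding genes called lower, 65 (21.6%) had a single exon block in GENCODE 29, against 3.19% of all coding genes tested and 4% of those called higher. Replication histones are single-exon genes and made up part of this group. Without that list 35 of 265 coding genes called lower (13.2%) had 1 exon block, against 2.92% of the coding genes tested, and their median span was 13287 bases against 31351. Among coding genes shorter than 5 kb and outside the histone list, 4.94% were called lower and 1.83% higher, while among those over 100 kb the shares were 0.697% and 0.731%. Genes called lower also had higher levels, with a median of 23.9 CPM against 4.60 for all genes tested; the part of level in the shares by span was not tested. Chromosome 6 held 39 genes called lower, of which 25 were histone genes.

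**Figure D5:**
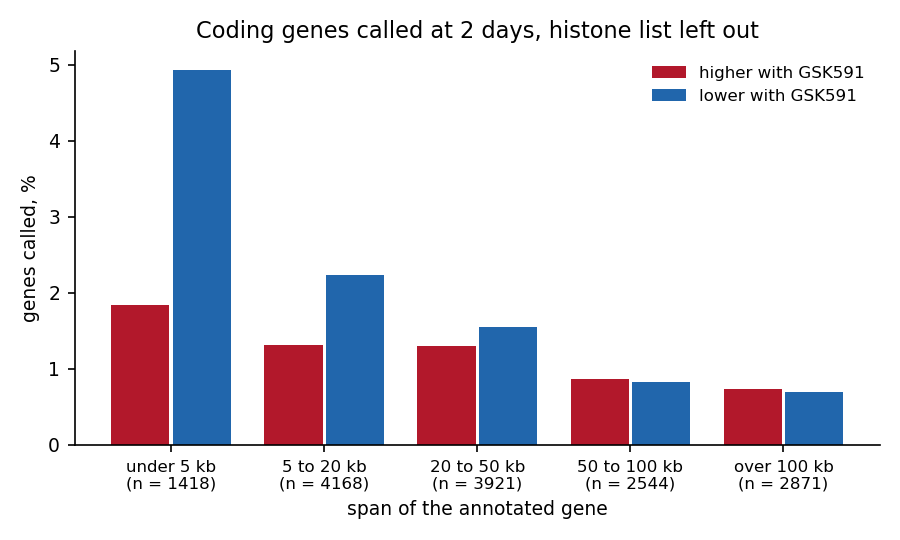
Coding genes called at 2 days as a percentage of those tested (y axis), by span of the annotated gene in kb (x axis; number tested in brackets), without the replication histone list, in red higher and in blue lower with GSK591. In the shortest class 4.94% were lower and 1.83% higher, and in the longest the 2 shares were 0.697% and 0.731%.

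The differences were partly seen again in other libraries at later times. At 4 days 1382 genes (6.03%) differed between the inhibitors and at 7 days 2149 (9.38%). Of the 255 genes higher with GSK591 at 2 days, 147 were called higher again at 4 days and 132 at 7 days, 104 at both, against 2.51% and 4.91% of all genes. Of the 362 lower genes, 199 were called lower again at 4 days and 163 at 7 days, 130 at both, against 3.52% and 4.47% of all genes. The opposite call at 4 days was made for none of the 617 by edgeR or DESeq2, with 2 genes at an unadjusted p under 0.05. At 7 days 6 genes lower with GSK591 at 2 days were called higher, the Wnt inhibitor gene DKK1 among them. DESeq2 gave 5 such calls, and 12 had an unadjusted p under 0.05.

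The interferon-stimulated and histone lists were followed over time. The difference between the inhibitors itself changed in 43 genes from 2 to 4 days (0.188%, with 0.0262% upward and 0.161% downward) and in 232 from 2 to 7 days (1.01%, with 0.702% upward and 0.31% downward). Of all genes, 3.52% were called lower and 2.51% higher at 4 days, and 4.47% lower and 4.91% higher at 7 days. Of the 40 interferon-stimulated genes 22 were called lower at 4 days and 2 at 7 days, the latter a share near the background. OASL differed by -3.16 at 2 days, -3.31 at 4 days and 0.39 at 7 days, and the change from 2 to 7 days was itself called at 3.55 (edgeR adjusted p = 0.00112). IFIT1 went from -1.82 to -2.78 and 0.61, with a change from 2 to 7 days of 2.43 (adjusted p = 0.00135). Histone genes were called lower in 53 of 56 at 4 days and 48 at 7 days. H3C14 went from -0.52 to -1.64 and -1.57, and both changes from 2 days were called (adjusted p = 4.10e-05 and 1.75e-05). AURKB went from -0.68 to -1.83 and -1.62. Of the p53 targets 10 were called higher at 4 days, and 7 higher and 1 lower at 7 days, when CDKN1A stood at 0.77 and MDM2 at 0.53. SMAD6 differed by -1.39, -0.66 and -0.80, and GREM1 by -1.83, -2.80 and -2.07.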

How the data were processed

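PRO-seq libraries of A549 cells were compared, 2 with GSK591 and 2 with MS023 for 2 days. The deposited counts per gene were made by the authors with featureCounts 2.0.1 of Subread on hg38, per the submitters' processing notes. The feature type and use of strand in counting are not given in the sources used here. The authors' deposited comparison tables give log2 fold changes, p-values and a mean signal of normalized counts per the file headers, and were used only for values named as such: of 461 called genes found in them, 402 had the same sign and 59 the opposite.

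Counts were tested with edgeR 4.0.16 (limma 3.58.1, R 4.3.3): filterByExpr with a minimum count of 10 and total of 15, TMM scaling, 1 robust quasi-likelihood fit of all 30 samples in 15 groups with 15 residual degrees of freedom, Benjamini-Hochberg adjustment over 22919 genes and a threshold of 0.05. Standard errors are the absolute log2 difference over the root of F. CPM are TMM-scaled. Gene models were GENCODE 29 and promoters RefSeq GRCh38.p14. Python 3.11.15, pandas 2.3.3 and matplotlib 3.10.9 were used for sequences and figures.

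Named genes were 7 methyltransferase and partner genes, the 12 genes with the biggest rise and 12 with the biggest fall among called coding and long noncoding genes whose mean reached 5 CPM and whose groups did not overlap, 3 pseudogenes each way, and in each of 38 lists up to 6 called members and the 2 most abundant. The members and lists were chosen with earlier results of these data known. Alternatives were DESeq2 1.42.0, its size factors, total counts, no filter, the 4 libraries alone, the replicate block, leaving out mitochondrial and ribosomal RNA genes, a pseudogene covariate, and each library left out. The procedure was tested on simulated data of 22527 genes, with 6 false among 139 calls. Single results on items withheld here are not reported. Libraries held 8441211 to 9360229 counts.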

Additional observations from a re-analysis of the deposited data

Results flagged for a closer look

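The following genes had a difference between GSK591 and MS023 that itself changed after 2 days, tested in edgeR as the later log2 difference minus that at 2 days. Across all genes 43 changed from 2 to 4 days (0.188%) and 232 from 2 to 7 days (1.01%). Positive values mean that GSK591 stood higher relative to MS023 at the later time.

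From 2 to 4 days the values were -1.218 for HELZ2, 0.7278 for SMAD6, 1.315 for AC009690.1, -1.184 for GREM1-AS1, -1.15 for AURKB, -1.116 for H3C14 and -1.059 for H3C15, with adjusted p up to 0.0242. HELZ2, GREM1-AS1, AURKB, H3C14 and H3C15 moved further below 0, while SMAD6 and AC009690.1 moved towards it.

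From 2 to 7 days the changes of interferon-related genes were 3.547 for OASL, 2.027 for IFIT2, 2.433 for IFIT1, 0.8241 for LGALS3BP and 0.7701 for SOCS3. Those of noncoding genes and pseudogenes, and of AC009690.1, were 1.687 for LINC01447, 1.227 for AC009690.1, 1.492 for IGFL1P1 and 0.971 for GCATP1. Stress and signalling genes had values of -0.9166 for NUPR1, 0.9249 for CHAC1, 0.6573 for CEBPB, 0.779 for DUSP1, 0.5716 for DUSP4 and 0.9134 for TNFAIP2. Cytoskeleton, adhesion and secreted-factor genes had values of 0.7729 for TPM1, 0.6796 for ACTG1, 1.124 for ITGA3, 1.316 for DKK1 and 0.7633 for NTN4. Cell cycle and histone genes had values of -0.9391 for AURKB, -1.05 for H3C14 and -1.054 for H3C15. The adjusted p of these changes were at most 0.0479. DKK1, an inhibitor of Wnt signalling, went from -0.50 at 2 days to 0.81 at 7 days, and ITGA3, an integrin gene, from 0.02 to 1.14.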

How the results depend on the processing

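Counts of called genes moved by more than 1.5 times as follows. A range given for fits without 1 library can also hold fits that moved less than this. At 2 days the 617 became 1108 with total counts as the only scaling, 304 with DESeq2 and 1106 when only the 4 libraries were fitted, and 223 to 271 without 1 library. The 255 higher became 48, 116 and 468, and 85 to 120 without 1 library. The 362 lower became 1060, 188 and 638, 570 with a covariate for the share of counts in processed pseudogenes, and 106 to 162 without 1 library. At 4 days 1382 became 705 with DESeq2, 2402 with the groups alone and 594 to 740 without 1 library. At 7 days 2149 became 16029 with total counts, 1091 with DESeq2 and 1026 to 1192 without 1 library. GSK591 against untreated went from 1292 to 651 (DESeq2), 2277 (groups alone) and 377 to 506 (1 library out). MS023 against untreated went from 2381 to 9228 (total counts), 1293 (DESeq2), 3952 (groups alone) and 964 to 1261 (1 library out). The change from 2 to 4 days went from 43 to 0 (edgeR with total counts), 75 (no filter), 26 (DESeq2), 175 (groups alone), 86 (pseudogene covariate) and 11 to 33 (1 library out). The change from 2 to 7 days went from 232 to 1590, 112 (DESeq2), 644 (groups alone), 463 (covariate) and 116 to 144. Called p53 targets went from 11 to 1 with total counts and 4 to 8 without 1 library, interferon-stimulated genes from 8 to 4 with DESeq2 and 4 to 5 without 1 library, and histones from 36 to 9 to 29 without 1 library. The cause was not tested.

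Of 120 called genes among the 181 named, none changed direction under any alternative, 82 were called by DESeq2, 95 under total counts, and 57 to 70 without 1 library. Direction changed for 26 genes that were not called. With total counts these log2 differences were -0.3741 for CARM1, -0.0525 for PRMT3, -0.3437 for PLK2, -0.2259 for TAPBP, -0.3054 for FANCG, -0.2681 for CEP250, -0.3127 for PRPF8, -0.2911 for SNRNP70, -0.2272 for HNRNPA2B1, -0.3301 for UBTF, -0.3063 for SLC7A5, -0.3494 for TNFAIP2, -0.367 for ITGA3, -0.1837 for C1R, -0.2993 for SEMA4B, -0.117 for DMRTA1 and -0.2587 for ZNF513. Other changes of direction were CARM1 -0.002993 (no filter on low counts), CARM1 -0.01329 (pseudogene covariate), PSMB10 0.003095 (DESeq2 size factors in edgeR), PSMB10 0.002881 (DESeq2), PSMB10 0.01704 (only the samples of the groups compared), PSMB10 0.005848 (without mitochondrial and ribosomal RNA genes), NCL 0.006128 (pseudogene covariate) and NTN4 0.003113 (only the samples of the groups compared). Without 1 library the values ranged from -0.03928 to 0.06489 for CARM1, from -0.2475 to 0.004386 for SNRPB, from -0.1953 to 0.03533 for ISG20, from -0.005164 to 0.3539 for TAPBP, from -0.05464 to 0.05507 for PSMB10, from -0.1586 to 0.05618 for CENPA, from -0.2724 to 0.07957 for FANCA, from -0.0362 to 0.2966 for CEP250, from -0.01339 to 0.1708 for PRPF8, from -0.008921 to 0.3214 for HNRNPA2B1, from -0.3297 to 0.1258 for NCL, from -0.1015 to 0.04916 for NFKBIZ, from -0.04087 to 0.08801 for ITGA3, from -0.2062 to 0.007077 for FN1 and from -0.121 to 0.07846 for NTN4.

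With the replicate number as a replicate block 655 genes were called, 610 of them shared with the 617. Deviations of same-numbered libraries correlated at -0.03 over 2 pairs, so the numbers are not shown to pair the samples. Precision is limited by 2 libraries a group and 2497281 to 3244946 nuclear counts a library. In simulated data 20.9% of genes changed by 0.5 on the log2 scale were recovered, 80.6% of those changed by 1 and 98.5% of those changed by 2. The changed genes were drawn only from those with a mean of at least 5 CPM. The median of all genes tested was 4.60 CPM, and recovery at lower levels was not tested.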

Other observations

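Further called genes of secreted and metabolic pathways were higher with MS023, and 1 was higher with GSK591. FGA, which encodes the fibrinogen alpha chain, was at 10.2 and 9.88 CPM with GSK591, 20.3 and 19.8 with MS023 and 2.45 and 2.42 in untreated cells (-1.0 ± 0.16 (SE), edgeR adjusted p = 7.74e-05), so both inhibitors stood above untreated cells. IRS2, an insulin receptor substrate gene, was at 70.6 and 55.3 against 106 and 102 CPM (-0.73 ± 0.12 (SE), adjusted p = 0.000176), and PDK4, which restrains pyruvate oxidation, differed by -0.64 (adjusted p = 0.0295). NR0B1, a nuclear receptor gene active in cells with high NRF2, was at 41.7 and 51.0 against 87.7 and 89.9 CPM (-0.94 ± 0.13 (SE), adjusted p = 1.78e-06). Of 33 NRF2 targets 3 were called lower and 1 higher (12.1%, beside 2.69% of all genes): GPX2 and FTL differed by -0.58 (adjusted p = 0.0262) and -0.42 (adjusted p = 0.0243), and ALDH3A1 by 0.47 (adjusted p = 0.00876). AXIN2, a feedback target of Wnt signalling, was at 5.65 and 4.37 against 11.0 and 9.23 CPM (-1.02 ± 0.24 (SE), adjusted p = 0.00811), and NKD2 and DKK1, inhibitors of the same pathway, differed by -0.98 (adjusted p = 0.0245) and -0.50 (adjusted p = 0.00415). ADM, the adrenomedullin gene, and GAPDH differed by -0.66 (adjusted p = 0.000144) and -0.53 (adjusted p = 0.00103).

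Of 30 tested genes of the actin cytoskeleton and its SRF and YAP targets 2 were called higher and 1 lower (10%, beside 2.69% of all genes). TPM2, a tropomyosin gene, was at 35.9 and 33.7 against 23.1 and 21.9 CPM and differed by 0.63 (adjusted p = 0.0297), TPM1 by 0.46 (adjusted p = 0.0249) and AJUBA, which went the other way, by -0.42 (adjusted p = 0.0297). DESeq2 called 0 of this list, and 10 had an unadjusted p under 0.05. The basement membrane collagen gene COL4A6 differed by 1.13 (adjusted p = 0.0216). PHLDA1, a feedback gene of growth factor signalling, was at 94.1 and 112 against 157 and 155 CPM and differed by -0.60 (adjusted p = 0.000226). The semaphorin receptor genes PLXNA3 and PLXNA1 differed by -1.06 (adjusted p = 0.00515) and -0.75 (adjusted p = 0.0488). HOXB4, which overlaps HOXB3, differed by -1.16 (adjusted p = 0.00845), and the Polycomb gene CBX2 by -0.42 (adjusted p = 0.0435). Of 404 zinc finger genes tested 10 were called lower and 1 higher (2.72%, beside 2.69% of all genes), so the family's share was at the background. ZNF469 was at 30.6 and 33.2 against 55.5 and 53.3 CPM and differed by -0.77 (adjusted p = 0.000103), and ZNF410 differed by 0.66 (adjusted p = 0.0288). Among ribosomal protein genes RPL10 was at 34.7 and 40.6 against 61.1 and 60 CPM and -0.68 (adjusted p = 9.40e-05). These adjusted p come from edgeR's quasi-likelihood test over all genes.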
